A study of Mus musculus with 6 samples.

Results

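The 10 genes described here write, copy, remove and guard DNA methylation in the mouse oocyte: Dnmt1, Dnmt3a, Dnmt3b, Dnmt3l, Uhrf1, Dppa3, Tet1, Tet2, Tet3 and Zfp57. They were chosen by symbol from the 25239 genes of a count table, and all 10 were found and passed the filter on low counts. The table covers fully grown oocytes in 6 poly(A)-primed libraries: 3 are of wild-type (WT) oocytes and 3 of oocytes with a conditional knockout of Nat10 (cKO) driven by Gdf9-cre, a recombinase active in oocytes from early follicle stages. All oocytes were taken 36 to 48 h after PMSG, a gonadotropin that makes follicles grow. Strain, age and the number of oocytes or females behind a library are not given in the labels. The p-values therefore weigh the difference between genotypes only against the spread of these libraries, and some of that spread may be technical. NAT10 acetylates cytidines in RNA. The question is which transcripts differ in level once the oocyte lacks it.

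Oocytes gain most of their DNA methylation while they grow. DNMT3A adds methyl groups to unmethylated DNA with DNMT3L, a relative without catalytic activity that binds and stimulates it, while DNMT3B is known to be dispensable for this step in mouse oocytes. DNMT1 copies methylation onto newly replicated DNA, and UHRF1 guides it there. DPPA3, also called STELLA or PGC7, keeps UHRF1 out of the oocyte nucleus and shields the maternal genome from oxidation after fertilisation. The TET enzymes oxidise methylcytosine, TET3 being the form stored in the egg for the zygote. ZFP57 is a zinc finger protein that binds methylated imprinting control regions and brings in TRIM28.

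Positions are on the mm10 build. No base of the 10 genes' counted exons overlaps an exon of another gene in the table. The writers are Dnmt3a (chr12:3806980-3914443), Dnmt3b (chr2:153649449-153687730), Dnmt3l (chr10:78042287-78063622) and Dnmt1 (chr9:20907206-20959888). Uhrf1 (chr17:56303337-56323486) and Dppa3 (chr6:122626424-122630271) act on maintenance. The erasers are Tet1 (chr10:62804570-62887324), Tet2 (chr3:133463677-133544390) and Tet3 (chr6:83362374-83456392), and Zfp57 spans chr17:37001163-37010729. Counted exonic lengths run from 818 bases for Dppa3 to 14354 for Tet1. The share of codons that end in C, a position where NAT10-dependent acetylcytidine has been reported, ran from 22.5% (Tet2) to 35.1% (Tet3), where the median of 13038 tested genes was 29.6%. Dnmt3a had 34.0% and Dnmt1 33.5%, while Dppa3 had 22.7% and Tet1 23.9%.

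Several of these genes start at more than 1 promoter, and the counts sum all of them. The sequences below are the 250 bases before 5 start sites, from RefSeq (GRCm38.p6, the same build as mm10). Those of Dnmt1 and Dnmt3a were chosen because they separate the forms that oocytes are known to use from the others. All 5 sequences are written 5′ to 3′ on the gene's strand with each CG, the dinucleotide that these enzymes methylate, in capitals.
Dnmt1, upstream start, chr9:20959889-20960138 (minus strand): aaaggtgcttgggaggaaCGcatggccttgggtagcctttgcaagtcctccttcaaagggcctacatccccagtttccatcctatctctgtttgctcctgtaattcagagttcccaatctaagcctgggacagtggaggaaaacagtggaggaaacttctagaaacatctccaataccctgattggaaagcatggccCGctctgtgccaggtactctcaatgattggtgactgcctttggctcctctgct
Dnmt1, start of the full-length form, chr9:20952980-20953229 (minus strand): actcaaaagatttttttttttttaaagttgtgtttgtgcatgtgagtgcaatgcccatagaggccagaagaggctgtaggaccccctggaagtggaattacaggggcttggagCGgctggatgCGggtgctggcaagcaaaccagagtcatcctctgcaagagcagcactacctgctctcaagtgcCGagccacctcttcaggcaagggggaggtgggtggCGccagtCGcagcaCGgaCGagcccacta
Dnmt3a, first start, chr12:3806730-3806979 (plus strand): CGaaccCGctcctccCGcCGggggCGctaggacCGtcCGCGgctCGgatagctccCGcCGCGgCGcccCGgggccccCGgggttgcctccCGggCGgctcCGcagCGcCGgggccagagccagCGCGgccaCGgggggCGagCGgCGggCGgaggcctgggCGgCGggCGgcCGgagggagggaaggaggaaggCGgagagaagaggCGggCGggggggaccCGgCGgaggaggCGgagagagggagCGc
Dnmt3a, internal start, chr12:3891494-3891743 (plus strand): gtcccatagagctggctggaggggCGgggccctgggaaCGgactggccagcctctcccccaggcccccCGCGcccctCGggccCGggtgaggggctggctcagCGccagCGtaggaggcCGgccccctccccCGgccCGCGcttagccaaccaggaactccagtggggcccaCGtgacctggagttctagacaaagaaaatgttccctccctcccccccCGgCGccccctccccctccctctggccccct
Dnmt3l, first start, chr10:78042037-78042286 (plus strand): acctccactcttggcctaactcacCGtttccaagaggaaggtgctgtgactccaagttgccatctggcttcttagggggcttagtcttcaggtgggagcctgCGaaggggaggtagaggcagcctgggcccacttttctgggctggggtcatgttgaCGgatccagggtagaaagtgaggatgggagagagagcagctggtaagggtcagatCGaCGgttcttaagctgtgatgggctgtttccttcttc

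The upstream Dnmt1 window holds 2 CG sites and leads to a form of 1501 codons, whereas the window of the form of 1620 codons holds 7. Another Dnmt1 window, not printed, lies at chr9:20952624-20952873, holds 26 and also leads to a form of 1501 codons. Mouse oocytes are known for a shorter DNMT1 made from an upstream first exon. The first Dnmt3a window holds 38 CG sites, more than 98.1% of 32851 promoter windows of the same length, and leads to a form of 908 codons. The internal window holds 15 and leads to a form of 689 codons, the shorter DNMT3A known from germ cells and embryonic stem cells. The printed Dnmt3l window lies within the neighbouring gene Aire, holds 5 and leads to a form of 421 codons. Other Dnmt3l windows, not printed, lie at chr10:78049592-78049841 and chr10:78055085-78055334. The former holds 4 and also leads to a form of 421 codons, and the latter holds 3 and leads to 126 codons. At least 1 CG was found in 92.1% of all windows, with a median of 6. Of the 10 genes 9 matched the promoter table. Forms of a gene were not counted separately, so a change of form within Dnmt1 or Dnmt3a cannot be seen.

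The libraries held 20167665 to 29407659 gene counts, and the authors' deposited share of spike-in RNA, whose denominator is not stated, was 0.25% to 0.32% in WT and 0.34% to 0.43% in cKO. Nat10 itself stood at 45.0 to 64.5 CPM (read counts scaled to a common library size with TMM factors) in WT and at 7.18 to 7.98 CPM in cKO. All 12 oocyte markers were present, with a summed level of 29522 to 34129 CPM in WT and 35410 to 37701 CPM in cKO. Of these 6 were called higher (Zp2, Zp3, Padi6, Figla, Nobox and Dazl) and 0 lower. Here and for the other markers, 20.1% of all tested genes were called higher and 20.1% lower. Markers of granulosa and cumulus cells, which surround the oocyte, summed to 101 to 106 CPM in WT and 83.2 to 86.8 CPM in cKO. Of these 17 markers 12 were tested, 2 (Inha and Hsd17b1) were lower and Tnfaip6 was at 0 in all libraries. Markers of theca and stroma summed to at most 4.49 CPM, with 1 of 3 tested (Acta2) called lower, and those of blood to at most 4.42 CPM. The part of these marker differences in the results below was not tested.

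Of the 10 genes, 1 fell in cKO oocytes and none rose (edgeR's quasi-likelihood test, threshold of 0.05 on the adjusted p), against 40.2% of all 14114 genes tested (20.1% higher and 20.1% lower). The gene that fell was Dnmt3a. At an unadjusted p under 0.05 there were 4 genes, Dnmt3a, Dnmt3b, Tet1 and Tet3, all with lower means in cKO, against 48.5% of all tested genes. The median log2 fold change of the 10 genes was -0.22, where that of all tested genes was 0.01. The groups did not overlap for 5 of the 10, 4 with cKO below WT and 1 above, and for 52.0% of all tested genes, 26.0% in each direction. Levels are shares of a library, and in bulk RNA fewer cells and less RNA per cell cannot be told apart.

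**Figure D1:**
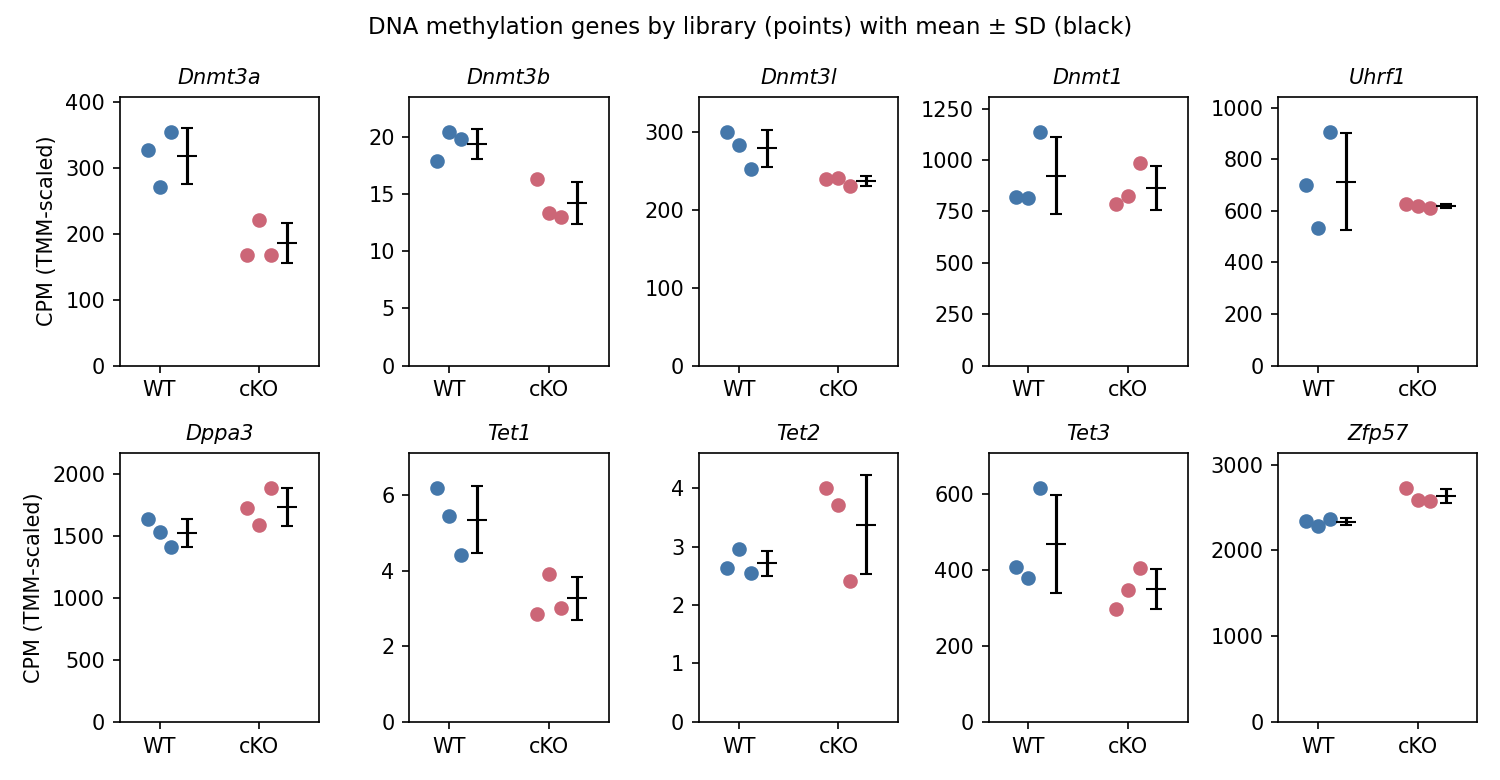
Levels of the 10 genes in CPM (y axes, each from 0) in the 3 WT (blue) and 3 cKO (red) libraries, with mean ± SD in black. The cKO points of Dnmt3a lie between 168 and 221 CPM, all under the WT points, while Dnmt1, Uhrf1, Dppa3, Tet2 and Tet3 overlap between genotypes.

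Dnmt3a, the main de novo methyltransferase of the oocyte, stood at 327, 271 and 355 CPM in WT and at 168, 221 and 168 CPM in cKO. Every cKO library was below every WT library. The mean went from 317 ± 42 to 186 ± 30 CPM (SD, n = 3), which is 58.5% of the WT level. On the log2 scale the difference was -0.77 ± 0.14 (SE; 95% interval -1.08 to -0.47; edgeR's quasi-likelihood test, adjusted p = 0.00103). It was called in all 15 alternative fits. Its size ranged from -0.58, after the trend with exonic length was removed, to -1.18 after spike-in scaling. In those fits the share of all tested genes called lower was 19.9% with DESeq2's size factors, 16.0% with library totals alone, 34.2% with spike-in scaling, 14.1% without a filter and 21.9% with a filter at 1 CPM. It was 20.9% in DESeq2, 20.7% in limma-voom, 22.0% with a replicate block and 22.1% with the length trend removed. Without WT replicate 1, 2 or 3 it was 14.6%, 15.0% or 18.6%, and without cKO replicate 1, 2 or 3 it was 15.3%, 17.9% or 15.8%. Among all tested genes 68.0% had a smaller change in size.

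Dnmt3l, the cofactor of DNMT3A, stood at 300.1, 283 and 253 CPM in WT and at 239.9, 240.2 and 229.9 CPM in cKO. All cKO values were lower, but the distance was small: the mean was 84.9% of WT, and the log2 fold change of -0.24 ± 0.11 (SE; 95% interval -0.48 to 0.01) missed the threshold (adjusted p = 0.111, edgeR's quasi-likelihood test). It was called lower after spike-in scaling (-0.64) and after removal of the length trend (-0.32). Dnmt3b, the second catalytic de novo enzyme, stood at 17.9, 20.4 and 19.8 CPM in WT and 16.3, 13.3 and 12.9 CPM in cKO. Its cKO values also lay below the WT values, and the log2 fold change was -0.45 ± 0.19 (SE; 95% interval -0.85 to -0.05; adjusted p = 0.0699 in the same test), called only after spike-in scaling (-0.83) among the alternatives.

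The maintenance pair showed no call. Dnmt1 stood at 820.1, 816 and 1138 CPM in WT and at 787, 823 and 985 CPM in cKO. Replicate 3 was the highest of each genotype, and the groups overlapped. Its log2 fold change was -0.10, with a 95% interval of -0.40 to 0.21, and turned above 0 with library totals alone (0.02), after removal of the length trend (0.04) and without WT replicate 3 (0.08). Uhrf1, the guide of DNMT1, stood at 701, 532 and 907 CPM in WT and at 625, 619 and 613 CPM in cKO. The WT libraries were spread on both sides of the cKO ones, with a coefficient of variation of 26.4% against 0.98%. The log2 fold change of Uhrf1 was -0.20 (95% interval -0.54 to 0.13), it was 0.00 without WT replicate 3, and it was called lower only after spike-in scaling (-0.58). Part of its transcript matches the pseudogene Gm5648 over 1590 bases at 98.3% identity, a gene the count table does not list, so its values are uncertain.

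The guards Dppa3 and Zfp57 had higher means in cKO, without a call. Dppa3 stood at 1638, 1531 and 1416 CPM in WT and at 1730, 1589 and 1891 CPM in cKO. The lowest cKO library was below the highest WT library. Its log2 fold change was 0.18 ± 0.11 (SE; 95% interval -0.05 to 0.42; adjusted p = 0.194 in edgeR's quasi-likelihood test), called higher with library totals alone (0.30) and turning to -0.22 after spike-in scaling and -0.12 after removal of the length trend. Dppa3 has the shortest transcript of the 10, and 451 of its bases match the pseudogene Dppa3-ps at 98.2% identity, so its values are uncertain. Zfp57 stood at 2341, 2291 and 2371 CPM in WT and at 2730, 2592 and 2579 CPM in cKO. All cKO values were above all WT values, and replicates of one genotype differed by little (coefficients of variation of 1.74% and 3.18%). The log2 fold change of Zfp57 was 0.17 ± 0.09 (SE; 95% interval -0.03 to 0.38; adjusted p = 0.160 in the same test). It was called higher with library totals alone (0.29) and was -0.22 after spike-in scaling.

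Tet3, the eraser stored in the egg, stood at 408, 378 and 615 CPM in WT and at 298, 347 and 404 CPM in cKO. The highest cKO library lay between the 2 lower WT libraries, so the groups overlapped, and WT replicate 3 stood apart from the others. The log2 fold change of Tet3 was -0.42 ± 0.17 (SE; 95% interval -0.79 to -0.04; adjusted p = 0.0713 in edgeR's quasi-likelihood test). It was called in 5 of 15 alternative fits, at -0.81 with spike-in scaling, -0.39 without a filter, -0.39 with a replicate block, -0.54 without WT replicate 2 and -0.53 without cKO replicate 3. It was not called at -0.17 without WT replicate 3 and -0.20 after removal of the length trend. Tet1 had 87 to 174 counts in WT and 84 to 112 in cKO, or 6.20, 5.44 and 4.43 CPM against 2.87, 3.93 and 3.02 CPM. All cKO values were lower. The log2 fold change was -0.71 ± 0.28 (SE; 95% interval -1.32 to -0.11; adjusted p = 0.0583 in the same test), and it was called after spike-in scaling (-1.14) and without WT replicate 3 (-0.83). Tet2 had 50 to 74 counts in WT and 67 to 120 in cKO, or 2.64, 2.95 and 2.54 CPM against 4.0, 3.72 and 2.41 CPM. The groups overlapped, and the interval of its log2 fold change, -0.37 to 1.01, allows a change in either direction.

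**Figure D2:**
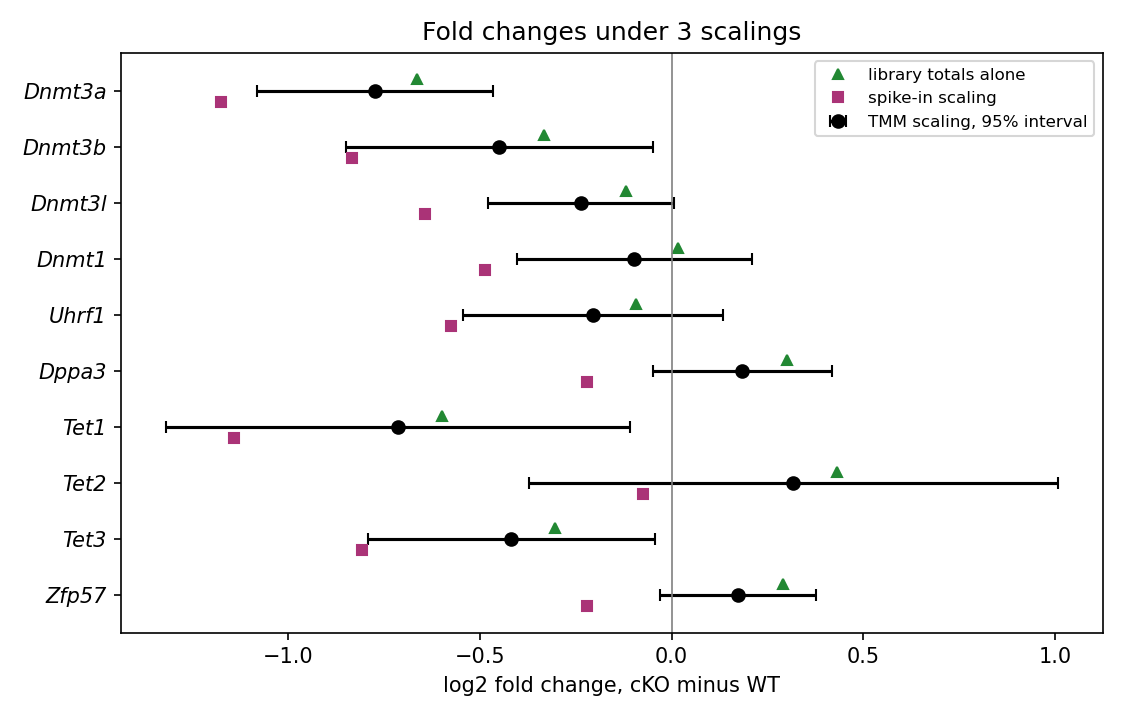
Log2 fold change of cKO over WT (x axis) for each of the 10 genes (y axis): black points are edgeR's estimates with TMM scaling and 95% intervals, triangles use library totals alone and squares spike-in scaling. Only the interval of Dnmt3a belongs to a gene called after adjustment; spike-in scaling puts every gene left of the TMM value, and Dppa3, Tet2 and Zfp57 change side.

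Spike-in scaling moved the median log2 fold change of all tested genes to -0.39 and that of the 10 genes to -0.61, with 6 of the 10 called lower and 0 higher, where 34.2% of all tested genes were called lower and 8.37% higher. With library totals alone the medians were 0.12 and -0.11, and 2 of the 10 genes were called higher and 1 lower (24.4% and 16.0% of all tested genes). Spike-in scaling rests on shares given to 2 digits and on the assumption that they are shares of all reads.

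Per kilobase of exonic length, the 10 genes spanned a range from 0.29 to 1868 CPM per kb in WT. Dppa3 (1868 ± 136 CPM per kb, SD, n = 3) and Zfp57 (723 ± 13) led, above 99.9% and 99.4% of tested genes. Uhrf1 (195 ± 52), Dnmt1 (146 ± 29) and Dnmt3l (104 ± 9) followed, then Tet3 (39.8 ± 11) and Dnmt3a (31.9 ± 4.3). Dnmt3b stood at 4.48 ± 0.31, and Tet1 (0.37 ± 0.06) and Tet2 (0.29 ± 0.02) came last. Across WT libraries the ranges of the neighbours Uhrf1 and Dnmt1, Tet3 and Dnmt3a, and Tet1 and Tet2 overlapped. Within each WT library, however, the first of each pair was the higher: Uhrf1 was 1.48, 1.13 and 1.38 times Dnmt1, and Tet3 was 1.06, 1.18 and 1.47 times Dnmt3a. The length used is that of all counted exons of a gene, not of the forms that oocytes express. The order of such close neighbours could therefore differ with other lengths. In cKO the first 8 places were the same, with Dppa3 at 2123 ± 185, Zfp57 at 816 ± 26, Tet3 at 29.8 ± 4.5 and Dnmt3a at 18.7 ± 3.1 CPM per kb. Tet1 stood above Tet2 in each WT library, at 0.43, 0.38 and 0.31 against 0.29, 0.32 and 0.28 CPM per kb. Tet2 stood above Tet1 in each cKO library, at 0.44, 0.40 and 0.26 against 0.20, 0.27 and 0.21 CPM per kb. Across the cKO libraries their ranges overlapped too. This change of order was noticed in the values and was not tested.

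**Figure D3:**
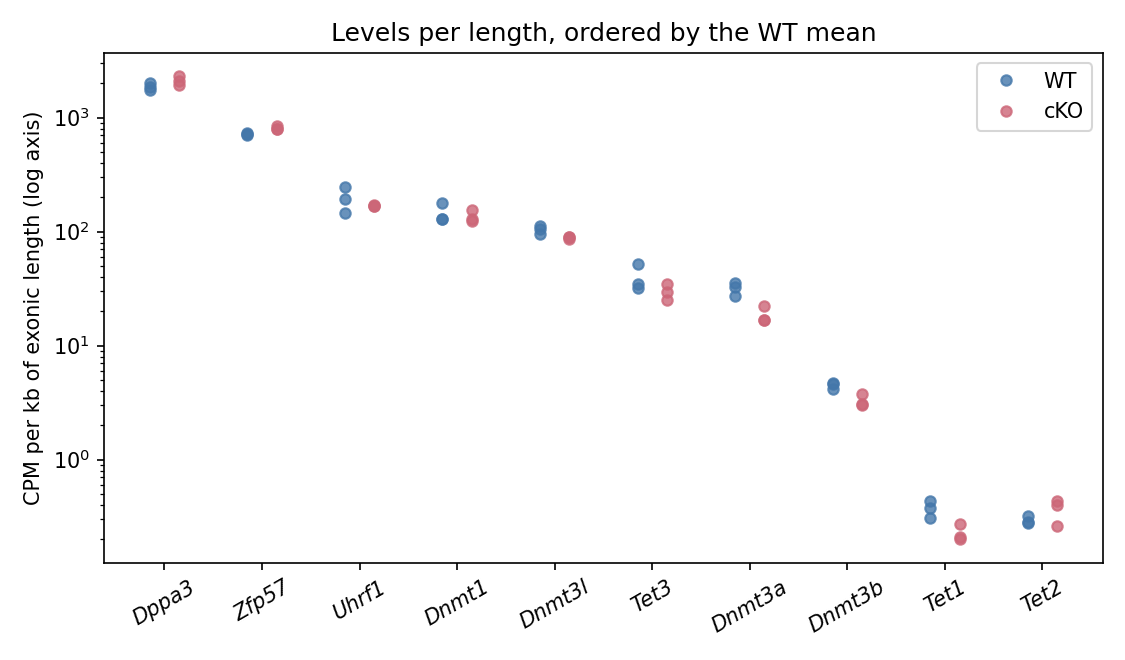
Levels per kilobase of exonic length in CPM per kb (log axis) for each library, genes ordered by their WT mean, WT in blue and cKO in red. Dppa3 and Zfp57 lie above the rest, and Tet1 and Tet2 lie below 0.5 CPM per kb in every library.

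Ratios of 2 genes within a library do not depend on how libraries are scaled. A trend with exonic length can still enter them, and they were not computed with that trend removed. Dnmt3l and Dnmt3a differ in counted length, at 2670 and 9947 bases. The ratio of Dnmt3l to Dnmt3a per kilobase was 3.42, 3.89 and 2.66 in WT and 5.32, 4.05 and 5.10 in cKO. Each cKO library was above each WT library, and the geometric mean was 1.46-fold higher (p = 0.1, two-sided exact permutation test over 20 assignments, the smallest p that 3 against 3 can give). The ratio of Zfp57 to Trim28, the corepressor it recruits, was 26.3, 25.8 and 21.3 in WT and 16.9, 19.7 and 11.8 in cKO, 0.65 times as high, also without overlap and with the same exact p of 0.1. Trim28 itself rose from 96.8 ± 12.8 to 171 ± 44 CPM (SD, n = 3), a log2 fold change of 0.82 that was 0.43 and not called after spike-in scaling (adjusted p = 0.10). The ratio of Uhrf1 to Dppa3 was 0.096, 0.078 and 0.14 in WT and 0.081, 0.087 and 0.073 in cKO, with overlap (exact p = 0.3). Ratios of Uhrf1 to Dnmt1, Dnmt3b to Dnmt3a, Tet3 to Dnmt3a, Tet2 to Tet3 and Tet1 to Tet3 also overlapped, with exact p-values of 0.2 to 0.5. After adjustment over the 8 ratios the p-values were 0.4 or 0.5, and this design cannot reach 0.05.

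**Figure D4:**
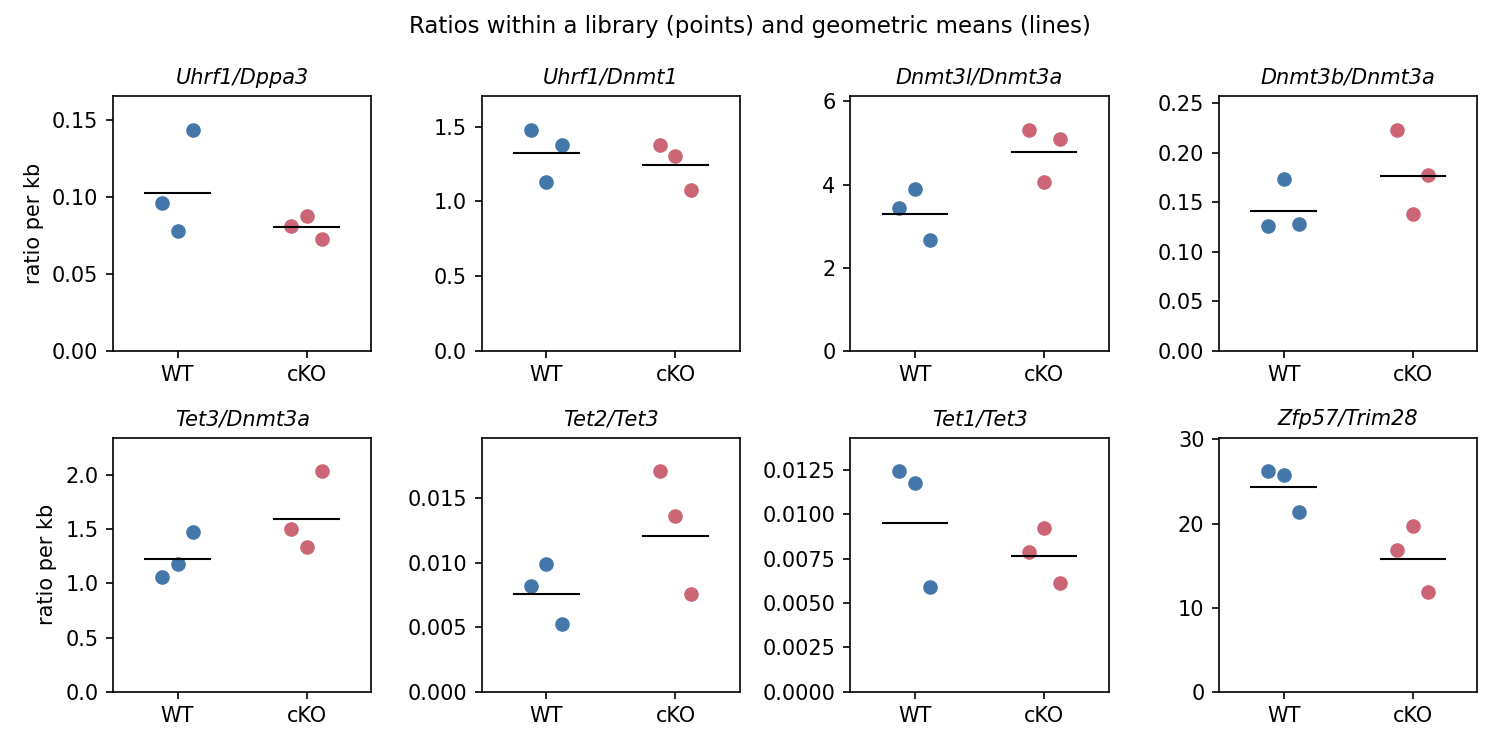
Ratios of 2 genes, per kilobase, in each library (y axes from 0), WT in blue and cKO in red, with geometric means as lines. Dnmt3l/Dnmt3a (2.66 to 3.89 in WT, 4.05 to 5.32 in cKO) and Zfp57/Trim28 are the 2 ratios whose genotypes do not overlap.

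Genes around the 10 were called about as often as tested genes at large. Of 109 genes of 8 lists found in the table, 95 were tested, and 12 rose and 24 fell in edgeR's quasi-likelihood test, 37.9% in all, near the 40.2% of all tested genes. In every list below, the counts stand beside 20.1% of all tested genes called higher and 20.1% called lower. The median log2 fold change of the 95 genes was -0.11. After spike-in scaling 5 were higher and 41 lower, where 8.37% and 34.2% of all tested genes were. Of the genes called, 12 of the 12 higher and 17 of the 24 lower kept their call with library totals alone, and 5 and 24 did after spike-in scaling. With each library left out in turn, 8 of the 12 and 13 of the 24 were called every time. The calls that ended without at least 1 library were those of Cul4a, Gnas, Mbd6 and Nsd2 among the higher, and of Cdca7, Lig3, Mat2b, Mbd5, Mthfd1, Nap1l5, Nlrp5, Pclaf, Rif1, Snrpn and Xpo1 among the lower (adjusted p of 0.0509 to 0.246 in edgeR in the fits that lost them). A single library moved the log2 fold change by over 1.5 times for 5 genes. Without cKO replicate 3, Mbd6 went from 1.07 to 0.44, Gnas from 0.47 to 0.30, Cdca7 from -0.65 to -0.43 and Nap1l5 from -2.16 to -3.63. Without cKO replicate 1, Cul4a went from 0.46 to 0.29. The lists were written with earlier results of these data known.

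Of 11 partners of imprint protection tested, 1 rose (Trim28) and 4 fell, with a median of -0.21. Nlrp2, an NLRP gene required in mouse eggs for normal early development, fell from 617 ± 131 to 243 ± 84 CPM (SD, n = 3), in all 3 cKO libraries below every WT library. NLRP genes have close paralogs, so this value is uncertain. Arid4a fell to 50.9% of WT, Nlrp5 to 66.3% and Rif1 to 79.0%. The calls of Nlrp5 and Rif1 each ended when single libraries were left out (adjusted p of up to 0.0789 and 0.102 in edgeR), and that of Rif1 also with library totals alone and with the length trend removed.

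Of 9 partners of maintenance 5 fell and 0 rose, with a median of -0.37. Usp7, a deubiquitinase that binds DNMT1 and UHRF1, fell from 378 ± 19 to 276 ± 10 CPM (SD, n = 3). Cdca7l fell to 66.5% of WT, Cdca7 to 64.0% and Xpo1, a nuclear export receptor, to 77.3%. The calls of Cdca7 and Xpo1 ended with library totals alone and when single libraries were left out, and that of Xpo1 also with the length trend removed (-0.28). Pclaf fell from 0.91 to 0.15 CPM, a low level at which the call was kept in 1 of 6 fits with a library left out. Kpna2, an importin, stood at 1175 ± 124 and 1029 ± 139 CPM and was not called.

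Among 13 tested genes of the chromatin setting in which de novo methylation takes place, 2 rose and 2 fell, and the median was 0.09. Nsd1, a histone H3 lysine methyltransferase known to guide methylation in mouse oocytes, fell from 170.3 ± 22.8 to 83.9 ± 15.9 CPM (SD, n = 3), with a log2 fold change of -1.02 ± 0.15 (SE). Trdmt1, a relative of the DNA methyltransferases that modifies tRNA, fell to 53.0% of WT. Ehmt2, the G9a histone methyltransferase, rose from 1.72 to 5.84 CPM. Nsd2 rose 1.41-fold, which was no longer called with spike-in scaling (0.11) or in 4 of 6 fits with a library left out. Kdm1b, a histone demethylase required for maternal imprints in mouse, stood at 315 ± 9 and 346 ± 65 CPM and was not called.

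Genes that act after TET, in the removal of oxidised or damaged bases, and TET regulators held calls in both directions. Of 11 repair genes 2 rose and 3 fell, with a median of -0.42. The DNA glycosylase genes Neil3 and Smug1 fell from 366 ± 52 to 188 ± 22 CPM and from 113 ± 20 to 63.4 ± 2.8 CPM (SD, n = 3), and the ligase gene Lig3 fell to 72.6% of WT, a call lost with library totals alone, with the length trend removed and in 4 of 6 fits with a library left out. The endonuclease gene Apex1 rose to 155% of WT, a call lost after spike-in scaling (0.23), and Gadd45a rose from 0.63 to 3.88 CPM. The glycosylase gene Tdg, named after its values were seen, is listed at 0 in every library, as is Amd1 of the S-adenosylmethionine list, so nothing is read from it. Of 9 TET regulators 2 rose and 2 fell, with a median of -0.37. Dcaf1, a substrate receptor of the CRL4 ubiquitin ligase that acts on TET proteins in mouse oocytes, fell from 96.0 ± 8.1 to 54.4 ± 15.2 CPM, and the scaffold gene Cul4b fell to 66.0% of WT. Cul4a rose to 137% of WT, a call lost after spike-in scaling (0.08), and Cxxc5 rose from 1.10 to 4.64 CPM.

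Of 10 genes tested in the list of methyl-CpG readers and their relatives, 3 rose and 1 fell, with a median of 0.24. The list goes by gene names, and not every protein in it need bind methylated CG sites. Uhrf2, the paralog of Uhrf1, rose from 1.97 ± 0.30 to 5.22 ± 1.16 CPM (SD, n = 3). Mbd1 rose to 186% of WT, a call lost after spike-in scaling. Mbd6 stood at 5.60, 5.40 and 6.10 CPM in WT and at 8.91, 6.52 and 20.4 CPM in cKO, where replicate 3 was far above the others. Its call, at 210% of WT, was lost after spike-in scaling, in limma-voom and in 3 of 6 fits with a library left out, and it was 136% without cKO replicate 3. Mbd5 fell to 67.3% of WT, a call lost with library totals alone, with the length trend removed and in 3 of 6 fits with a library left out.

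Of 15 genes of the S-adenosylmethionine and folate cycles, which supply the methyl donor, 1 rose and 3 fell, with a median of 0.10. Mat1a, a methionine adenosyltransferase gene known mainly from liver, fell from 123 ± 11 to 35.2 ± 9.8 CPM (SD, n = 3), with a difference of -1.80 ± 0.19 (SE) on the log2 scale. Gnmt, whose enzyme consumes S-adenosylmethionine, rose from 5.75 ± 0.95 to 15.9 ± 1.6 CPM. Mat2b, the regulatory subunit gene, fell to 80.1% of WT and Mthfd1 to 75.4%, both called no longer with library totals alone or in 4 of 6 fits with a library left out.

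Of 17 tested transcripts from imprinted regions that carry maternal methylation, 1 rose and 4 fell, with a median of -0.08. Mest fell from 245 ± 35 to 107 ± 32 CPM (SD, n = 3), and Cdh15 fell from 7.56 ± 1.86 to 3.22 ± 1.14 CPM. Snrpn and Nap1l5 fell from 1.79 to 0.53 and from 1.76 to 0.39 CPM, calls kept in 2 of 6 fits with a library left out. Snurf, a gene at the Snrpn locus named after its values were seen, is listed at 0 in every library. How overlaps were counted is not stated, so the value of Snrpn is uncertain. Gnas rose to 138% of WT, a call lost after spike-in scaling (0.06). Commd1 stood at 143 ± 8 and 127 ± 12 CPM and was not called. DNA methylation itself was not measured in these libraries.

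**Figure D5:**
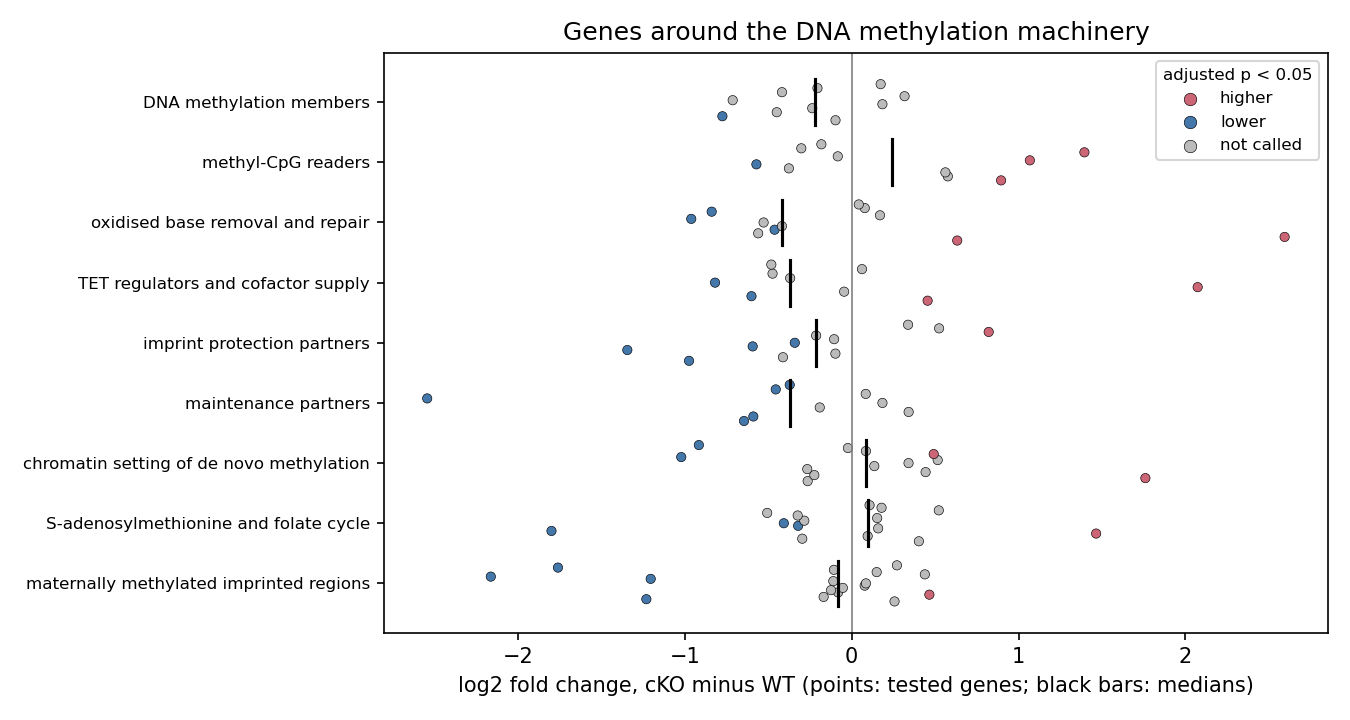
Log2 fold change of cKO over WT (x axis) for each tested gene of the 10 and of the 8 lists around them (rows), red where called higher, blue where called lower and grey where not called, with medians as black bars. Within the 10 genes 1 point is blue and 9 are grey; in the lists 12 are red and 24 blue.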

How the data were processed

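Poly(A) RNA of 6 oocyte libraries, 3 WT and 3 cKO, was made into Smart-seq2 libraries, per the labels' protocols, a method that marks neither strand nor molecules, so intervals cover counting error and library spread only. The authors deposited raw counts per gene, with exonic lengths; for read processing, mm10, STAR 2.7.10a, featureCounts and Trim Galore 0.6.7 are listed in the submitters' processing notes. The sources used here do not state how reads with several matches, overlaps or strand were counted. A second deposited table gives the fraction of reads mapped and from spike-in RNA, headed as percent.

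Genes were filtered with filterByExpr (minimum count 10), leaving 14114, and tested across all genes with edgeR 4.0.16 (R 4.3.3, TMM factors, quasi-likelihood F test, Benjamini-Hochberg adjustment, two-sided, threshold 0.05) without a block. The SE is the log2 fold change divided by the square root of F. The fit was also run on simulated data, an outcome not used here. A gene that was not called is not thereby shown to be unchanged. The alternatives were other scalings, filters, a fit with DESeq2 1.42.0, one with limma-voom 3.58.1, a replicate block, removal of a smooth trend with exonic length (mgcv 1.9.3) and leaving out each library. Spike-in scaling took as library size the gene counts divided by non-spike reads per spike-in read. Codons and transcript matches (megablast, at least 100 bases at 95% identity) came from GENCODE M21. The members and lists were chosen with earlier results of these data known. All 10 members are named; of each list, up to 6 called genes per direction and the 2 most abundant ones may be.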

Additional observations from a re-analysis of the deposited data

How the results depend on the processing

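Over 15 alternatives for each of the 10 genes, 129 of 150 fold changes kept their direction and side of the threshold, 13 passed the threshold and 8 changed sign; none lost a call. Dnmt3a was called in each (adjusted p up to 0.00914 in edgeR without WT replicate 1). With spike-in scaling 1182 genes were higher and 4832 lower, 6 of the 10 genes were lower, the 8 lists held 5 higher and 41 lower, and log2 fold changes were -0.83 (Dnmt3b), -0.64 (Dnmt3l), -0.58 (Uhrf1), -1.14 (Tet1), -0.81 (Tet3), -0.22 (Dppa3), -0.22 (Zfp57) and -0.0733 (Tet2). With library totals alone 2 of the 10 were higher, beside 24.4% of all tested genes, with Dppa3 at 0.30, Zfp57 at 0.29 and Dnmt1 at 0.0177. With the length trend removed 2 were lower, beside 22.1% of all tested genes, with Dnmt3l at -0.32, Dnmt1 at 0.0394 and Dppa3 at -0.12. Without a filter on low counts 2 were lower, beside 14.1% of all tested genes, with Tet3 at -0.39. With libraries left out, 1 to 2 of the 10 were lower, where 14.6% to 18.6% of all tested genes were. Dnmt1 ranged from -0.20 to 0.0776, Uhrf1 from -0.37 to 0.00318, Tet1 from -0.84 to -0.57, Tet3 from -0.54 to -0.17 and the log2 difference in the ratio of Uhrf1 to Dnmt1 from -0.20 to 0.0188, the latter without cKO replicate 3. The causes were not tested. Replicate numbers are shared by the genotypes, but nothing says that they pair libraries. Deviations of same-numbered libraries had correlations of -0.02, 0.06 and 0.11, and not every library correlated best with its own number. With the replicate block 3089 genes were higher and 3110 lower, against 2836 and 2838, and 2 of the 10 were lower, Tet3 being called at -0.39 (adjusted p = 0.00972 in edgeR). Tet1 and Tet2 rest on 50 to 174 counts per library, and whether depth limits them was not tested. Low counts were often even numbers, such as 2, 4, 2, 0, 0 and 8 for the granulosa marker Foxl2. Whether a count stands for a read or a pair of reads is not known here, so low values may rest on fewer fragments than counts.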
